A study of Mus musculus with 10 samples.

Results

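The genes that detect double-stranded RNA in mouse cells, and the enzymes that edit it, were examined in RNA-seq of lineage-negative (Lin-) bone marrow cells. The 8 genes were chosen by name for their function, not by their values, and all 8 were found among the 55359 genes of the expression table: Ifih1, Dhx58, Mavs, Tlr3, Eif2ak2, Zbp1, Adar and Adarb1. The series held 5 libraries from Dhx9f/f mice (WT) and 5 from Dhx9f/f;MX1 mice (cKO). Both groups carry loxP-flanked alleles of Dhx9, an RNA helicase that unwinds double-stranded RNA. The cKO mice also carry Cre recombinase under the interferon-responsive Mx1 promoter. Cre is induced in such mice by injecting poly(I:C), a synthetic double-stranded RNA that is itself a ligand of the sensors described here. In other experiments of the study mice of both genotypes were taken after poly(I:C), but no statement on the WT mice of these libraries was found, and if they received none, genotype and poly(I:C) cannot be told apart. No age is given for the animals, and although the study's general methods count individual mice as replicates, the labels do not tie each library to a separate mouse, so p-values measure the spread between these libraries, which may be technical.

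Double-stranded RNA in the cytosol is a sign of viral infection, but cells also make it from their own repeats. RIG-I (Rigi) and MDA5 (Ifih1) bind it and signal through the mitochondrial adaptor MAVS to induce type I interferon, whereas TLR3 senses it in endosomes. PKR (Eif2ak2) halts translation by phosphorylating eIF2α, ZBP1 binds Z-form nucleic acid and can start necroptosis, and ADAR1 (Adar) converts adenosine to inosine in the cell's own duplexes so that MDA5 and PKR are not triggered. Interferon raises the transcription of most of these genes, which therefore belong both to the sensing arm and to the response.

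Levels are FPKM, fragments scaled to gene length and library depth, which are scaled by length and can be set side by side between genes. Library depth, read back from the steps between low values, was 15026242 to 18715788 fragments in WT and 13788621 to 17169571 in the libraries labelled cKO. The targeted gene went against the labels: Dhx9 was at 65.43 to 72.42 FPKM in WT and at 130.82 to 156.49 in the libraries labelled cKO, and every direction below rests on the labels. These values are per gene and do not resolve exons, so transcripts with the floxed exons removed could still be counted. Xist was above 1 FPKM only in WT 3, WT 4 and WT 5. The Y-linked gene Ddx3y was at 0 to 0.05 FPKM in those libraries and at 19.66 to 38.53 in all others. By these genes WT held both sexes and the libraries labelled cKO only males, so sex was unequal between the groups. The WT libraries thus did not all come from a single animal, whereas these genes cannot show this for the libraries labelled cKO. Lineage markers also differed: of 16 monocyte and dendritic cell markers 15 were called lower, with a summed level of 1080 to 1860 FPKM in WT and 12 to 342 in the libraries labelled cKO, and of 11 erythroid markers 5 were called higher. Bulk RNA cannot tell fewer cells of a type from less RNA per cell, and this holds for each gene described here. A gene was called when limma on log2(FPKM + 0.1), with Benjamini-Hochberg adjustment over 18746 genes, put its adjusted p below 0.05 and its change at 2-fold or more. Fold changes on this scale understate the change of low genes.

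In WT the most abundant transcript of the 8 was Eif2ak2, at 20.5 ± 1.97 FPKM (SD, n = 5). Mavs and Adar followed at 13.7 ± 2.47 and 13.5 ± 0.634 FPKM, and their WT libraries overlapped. Dhx58 and Ifih1 came next at 5.41 ± 0.892 and 5.29 ± 0.781 FPKM, and these also overlapped. Zbp1 at 1.83 ± 0.664, Adarb1 at 0.448 ± 0.0983 and Tlr3 at 0.188 ± 0.0295 FPKM each lay below the gene before them with no overlap in WT. In the libraries labelled cKO the order was less clear: of the neighbouring pairs in the WT order, only Eif2ak2 and Mavs, and Ifih1 and Zbp1, stayed apart in every library.

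**Figure D1:**
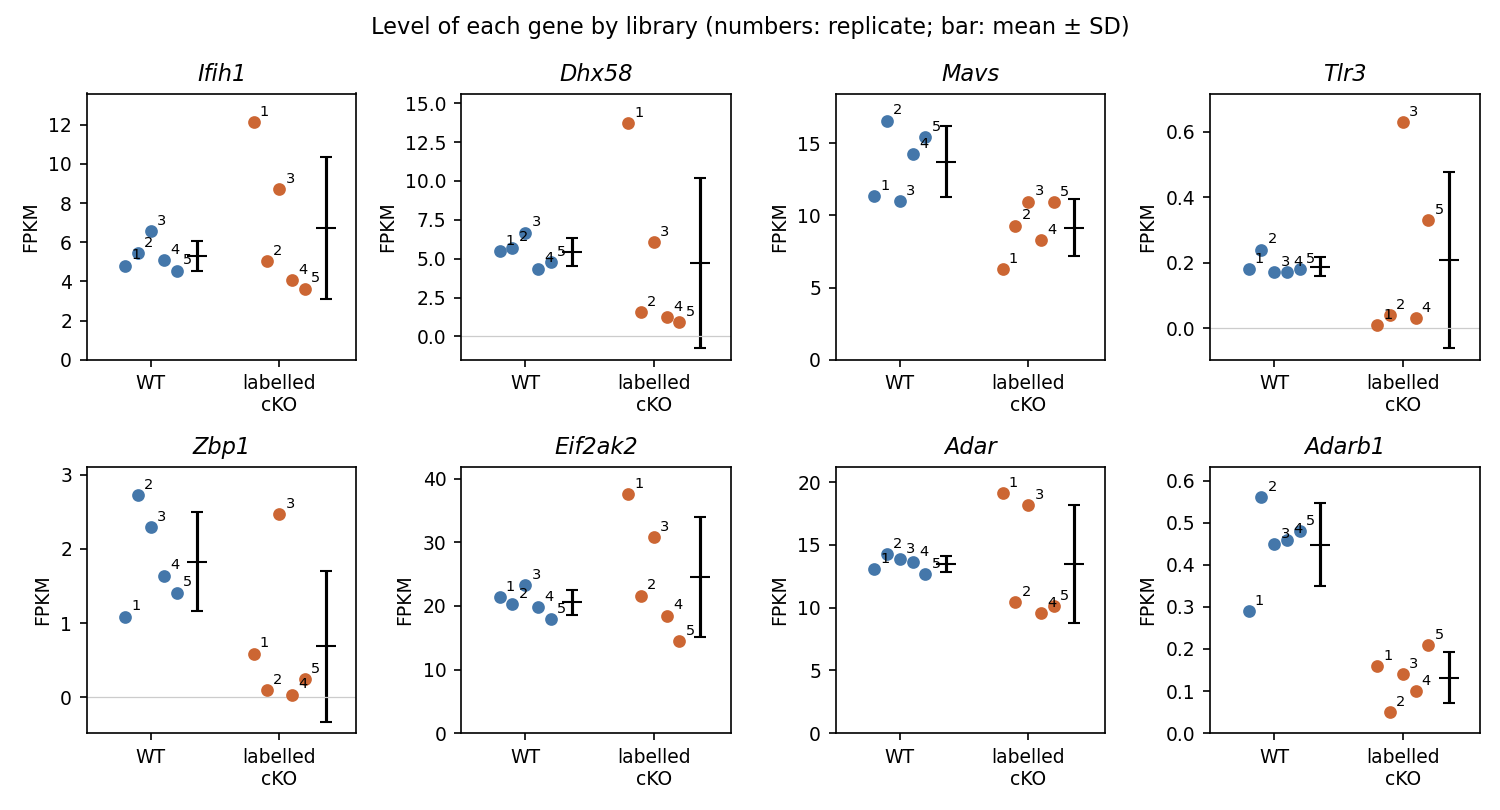
Level of each gene in FPKM (vertical axes, linear) in the 5 WT and the 5 libraries labelled cKO, with the replicate number beside each point and the mean ± SD to the right of each group. In the libraries labelled cKO, replicates 1 and 3 are the highest points for Ifih1, Dhx58, Zbp1, Eif2ak2 and Adar, while for Mavs and Adarb1 the groups do not overlap.

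The levels of Zbp1 and Adarb1 were called lower with the cKO label, and none of the 8 was called higher. Among all genes tested limma called 16.8% lower and 4.6% higher, so 2 lower calls among 8 genes is a share of the same order as the background. At an unadjusted limma p under 0.05, 3 of the 8 were lower and 0 higher. The 2 groups did not overlap for Mavs and Adarb1, which is 2 of 8 genes beside 32.2% of all genes tested. The median log2 fold change of the 8 was -0.46, and that of all genes tested was -0.11. For 6 of the 8 no difference between the groups was called, and several of these were very unequal among the libraries labelled cKO.

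The cytosolic RNA helicases are described first. Ifih1 (ENSMUSG00000026896; GRCm39 chromosome 2, 62425714 to 62476607, minus strand) encodes MDA5, which binds long duplexes. It was at 4.80, 5.44, 6.55, 5.09 and 4.55 FPKM in WT 1 to 5 and at 12.14, 5.02, 8.72, 4.08 and 3.63 in cKO 1 to 5. Libraries cKO 1 and cKO 3 lay above every WT library, cKO 2 lay inside the WT range, and cKO 4 and cKO 5 lay below it. Taken over the groups, the log2 fold change was 0.20 (95% interval -0.47 to 0.86, adjusted p = 0.627 by limma with Benjamini-Hochberg adjustment), and it was -0.05 without cKO 1.

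Dhx58 (ENSMUSG00000017830; chromosome 11, 100585710 to 100595097, minus strand) encodes LGP2, a relative of MDA5 without its signalling domains that modulates MDA5 and RIG-I. WT 1 to 5 held 5.50, 5.71, 6.68, 4.36 and 4.80 FPKM, and cKO 1 to 5 held 13.74, 1.55, 6.06, 1.23 and 0.94. The libraries labelled cKO spanned 13.3-fold on the log2(FPKM + 0.1) scale and the WT libraries 1.52-fold. Library cKO 1 was above all WT libraries and cKO 3 within their range, while cKO 2, cKO 4 and cKO 5 were below all of them. The log2 fold change was -0.93 (95% interval -2.32 to 0.47, adjusted p = 0.26 by limma), and it moved either way with the library left out. Without cKO 1 the value was -1.49 with a limma adjusted p of 0.0192, past both limits. Without cKO 2, cKO 4 or cKO 5 in turn it was -0.73, -0.65 and -0.56, with limma adjusted p of 0.43, 0.461 and 0.488. Rigi, the third helicase of the family, which binds short duplexes with a triphosphate end, was likewise highest in cKO 1 and cKO 3, at 5.05 and 3.82 FPKM in cKO 1 and cKO 3, at 1.25, 0.78 and 0.97 in cKO 2, cKO 4 and cKO 5, and at 3.19 to 3.80 in WT. Its log2 fold change was -0.85 (95% interval -1.85 to 0.16, limma adjusted p = 0.156).

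Eif2ak2 (ENSMUSG00000024079; chromosome 17, 79159972 to 79190012, minus strand) encodes PKR. It was at 21.34, 20.29, 23.30, 19.75 and 17.97 FPKM in WT 1 to 5 and at 37.56, 21.61, 30.84, 18.48 and 14.41 in cKO 1 to 5. Again cKO 1 and cKO 3 were above the WT range, and cKO 5 was below it. Its log2 fold change was 0.18 (95% interval -0.32 to 0.67, limma adjusted p = 0.55), and 0.01 without cKO 1.

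Adar (ENSMUSG00000027951; chromosome 3, 89622329 to 89660753, plus strand) encodes the editing enzyme ADAR1. The WT libraries were tightly grouped at 13.04, 14.23, 13.86, 13.62 and 12.65 FPKM, whereas cKO 1 to 5 were at 19.11, 10.43, 18.16, 9.56 and 10.14. No library labelled cKO fell inside the WT range: cKO 1 and cKO 3 lay above it and the other 3 below it. The means were equal at 13.5 FPKM, with an SD of 0.634 in WT and 4.73 in the libraries labelled cKO. The log2 fold change was -0.07 (95% interval -0.50 to 0.37, limma adjusted p = 0.81), and it took the opposite sign under median-ratio scaling (0.04) and quantile normalization (0.03). On the log2 scale the SD of Adar was 7.2 times as large in the libraries labelled cKO as in WT. Over 12353 genes that averaged 1 FPKM or more, the median of this ratio was 1.48, and 1.26% of them reached that of Adar. For Dhx58 the ratio was 6.92, for Eif2ak2 4.03 and for Ifih1 3.67, values reached by 1.49%, 7.63% and 9.81% of these genes. For Tlr3, Zbp1, Adarb1 and Mavs it was 8.72, 3.31, 1.41 and 1.25, reached by 0.656%, 12.5%, 52.7% and 60.1%. Tlr3 and Adarb1 averaged less than 1 FPKM and are not among the genes they were set against. The ratio of Tlr3 rested on about 1 to 54 fragments per library. The SD in the libraries labelled cKO alone was less unusual for Adar, at 0.49 on the log2 scale, reached by 22.2%. For Dhx58, Ifih1 and Eif2ak2 this SD was 1.61, 0.73 and 0.55, reached by 2.59%, 12.6% and 18.8%.

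**Figure D2:**
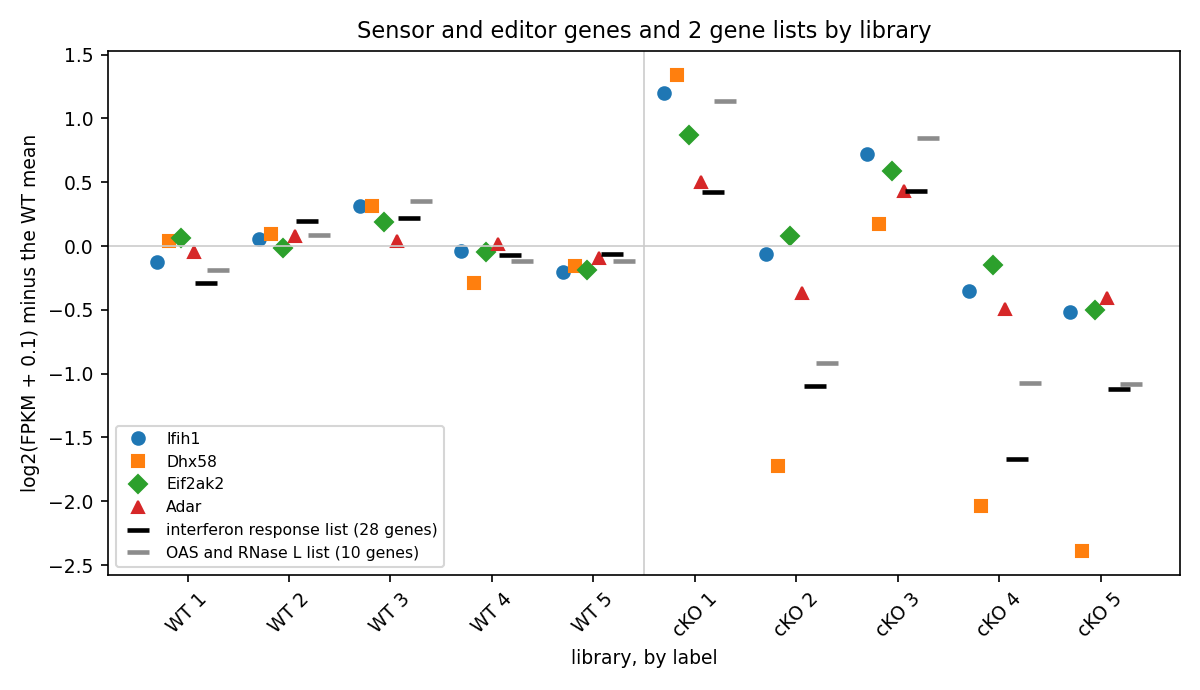
Level of 4 sensor and editor genes in each library as log2(FPKM + 0.1) minus the WT mean (vertical axis), beside the mean of the interferon response list of 28 genes and of the OAS and RNase L list of 10 genes on the same scale (horizontal bars). In cKO 1 and cKO 3 all 6 series lie above 0, and in cKO 4 and cKO 5 all 6 lie below 0.

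The same pair of libraries led across the interferon-responsive genes. Libraries cKO 1 and cKO 3 were the 2 highest of those labelled cKO for 5 of the 8 genes (Ifih1, Dhx58, Eif2ak2, Zbp1 and Adar), for 24 of 28 genes of an interferon response list (85.7%) and for 8 of 10 genes of an OAS and RNase L list (80%). Of all 18746 genes tested, 1905 (10.2%) had this order. The pair was singled out after the values were seen, so these counts are a description with no test. The interferon response genes averaged 0.42 and 0.43 above the WT mean on the log2 scale in cKO 1 and cKO 3. In cKO 2, cKO 4 and cKO 5 they averaged -1.10, -1.67 and -1.12. Isg15, a ubiquitin-like modifier, and Rsad2, the antiviral enzyme viperin, are examples chosen after their values were seen. Isg15 was at 36.18 and 69.13 FPKM in cKO 1 and cKO 3, at 3.22 to 6.04 in the other 3 libraries labelled cKO, and at 2.48 to 13.07 in WT. Rsad2 was at 30.82 and 17.72 FPKM in cKO 1 and cKO 3, at 1.59 to 3.25 in the other 3, and at 1.79 to 3.28 in WT. Not every gene with this order rose above WT. Gbp2 was at 1.32 and 3.89 FPKM in cKO 1 and cKO 3, beside 4.55 to 6.88 in WT. Trim30a was at 12.04 and 14.57 FPKM there, beside 19.46 to 25.44 in WT.

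Part of the neutrophil marker list moved with this pair. The granule and calprotectin genes Ngp, Camp, Ltf, S100a8 and S100a9 were highest in cKO 1 and next highest in cKO 3 among the libraries labelled cKO, and Ngp was at 317.58 and 66.44 FPKM there beside 2.41 to 16.04 in the other 3. Of the 10 neutrophil markers, 6 had cKO 1 and cKO 3 as the 2 highest libraries of their label and 4 were called lower, with a summed level of 2730 to 3700 FPKM in WT and 147 to 2590 in the libraries labelled cKO. The 4 called lower were Mpo, Elane, Prtn3 and Ctsg, the primary granule genes, and they were highest in cKO 1 and cKO 5: Mpo, for example, was at 277.33 and 391.92 FPKM there and at 49.43 to 186.27 in the other 3. Ly6g was at 0 in cKO 2, cKO 4 and cKO 5. By contrast, 0 of the 16 monocyte and dendritic cell markers had this order: their mean relative to WT was -4.22 on the log2 scale in cKO 1 and -2.29 in cKO 3, and Siglech was at 0 in cKO 1, cKO 2 and cKO 4. Library cKO 1 was also the least deep of the 10. The part of these differences in the levels of the sensors was not tested.

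For each of the 8, the 3 genes whose levels followed it most closely over the 10 libraries were found among 12321 named genes, by the mean absolute difference of centred log2 values. For 4 of them the lists held interferon-responsive genes. Ifih1 was nearest to Uba7 (0.08), the enzyme that activates ISG15, and then to Oas1b (0.14) and the predicted gene Gm6548 (0.16). Dhx58 was nearest to Xaf1 (0.18), Oas1a (0.26) and Rigi (0.30). Adar was nearest to Herc6 (0.09), a ligase for ISG15, to the RNA helicase Mov10 (0.10) and to Irf9 (0.11), the DNA-binding subunit of the interferon-activated complex ISGF3. Zbp1 was nearest to Gbp2 (0.38), a guanylate-binding protein, but also to the complement gene C1qc and to Actn1 (0.46 each). Those of Eif2ak2 were Gm6548 (0.11), Cep83os and Ppp1r37 (0.13 each), and those of Tlr3, less close, were Gm50023 (0.23), Dab2ip (0.31) and AW146154 (0.34). The nearest genes of Mavs were Hyou1 (0.06), Slc5a3 and Kdm1b (0.09 each), and those of Adarb1 were Slc24a3, Rap1b (0.13 each) and Asap2 (0.14). For members other than Zbp1 and Adarb1 this search was added after the values were seen.

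Because the 8 genes include interferon-inducible ones, the windows around their annotated starts were searched on both strands. The search was for the core of the interferon-stimulated response element, GAAANNGAA, and for the same core with 1 more A at its 3′ end. The RefSeq windows run from 250 bases before to 50 bases after a start. The longer core was in 3.44% of 32851 windows and the shorter in 8.56%. Of the 8 genes, 6 had at least 1 window, and Dhx58 and Zbp1 had none. The longer core was in the windows of Ifih1 and Eif2ak2, beginning 33 and 19 bases from the start (counted from 1 at the start). The shorter core was also in 1 of the 3 windows of Adar, around a start that lies inside the annotated gene, at positions 34 and -249. No match was found in the windows of Mavs, Tlr3 and Adarb1. Rigi held the longer core on the opposite strand at position 3. Each stretch of 30 bases below is written 5′ to 3′ on the strand of the gene, with the core in capitals (the longer core for Ifih1, Eif2ak2 and Rigi, the shorter for Adar), to show the genes whose levels split the libraries labelled cKO. Their positions on GRCm39 are chr2:62476550-62476579 (minus strand) for Ifih1, chr17:79189964-79189993 (minus) for Eif2ak2, chr3:89638045-89638074 (plus) for Adar and chr4:40239804-40239833 (minus) for Rigi.
Ifih1: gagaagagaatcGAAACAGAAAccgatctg
Eif2ak2: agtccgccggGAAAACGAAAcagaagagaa
Adar: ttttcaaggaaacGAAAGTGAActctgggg
Rigi: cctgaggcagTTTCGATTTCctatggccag
A match says only that these letters are present, and binding was not measured here.

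The 2 sensors linked to cell death and endosomes were scarce. Zbp1 (ENSMUSG00000027514; chromosome 2, 173033815 to 173060724, minus strand) fell in the libraries labelled cKO. It was at 1.09, 2.72, 2.29, 1.64 and 1.41 FPKM in WT 1 to 5 and at 0.59, 0.10, 2.47, 0.04 and 0.25 in cKO 1 to 5, or about 3 to 193 fragments per library. Libraries cKO 1, cKO 2, cKO 4 and cKO 5 were below every WT library, while cKO 3 was within the WT range. The log2 fold change was -2.05 (95% interval -3.56 to -0.54, standard error 0.686, limma adjusted p = 0.0309), and the exact two-sided permutation test gave p = 0.0397. The call was lost without WT 2, WT 3, WT 4, cKO 2, cKO 4 or cKO 5 in turn, with limma adjusted p of 0.0691, 0.0623, 0.0549, 0.0754, 0.0684 and 0.0591 and log2 fold changes of -1.89, -1.95, -2.07, -1.76, -1.63 and -1.96. Without cKO 3 the value was -2.68 with a limma adjusted p of 0.00149. A covariate for Xist left the log2 fold change at -2.04 with a limma adjusted p of 0.13.

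Tlr3 (ENSMUSG00000031639; chromosome 8, 45848702 to 45864117, minus strand) was near the limit of detection. It was at 0.18, 0.24, 0.17, 0.17 and 0.18 FPKM in WT and at 0.01, 0.04, 0.63, 0.03 and 0.33 in cKO 1 to 5, or about 1 to 54 fragments. Libraries cKO 3 and cKO 5 were above every WT library and the other 3 were below, at 0.01 to 0.04 FPKM. Depending on library depth, 3 fragments are worth 0.0300 to 0.0407 FPKM. As fitted, the log2 fold change was -0.33 (95% interval -1.46 to 0.81, limma adjusted p = 0.639), and it was 0.25 under quantile normalization, so the groups did not differ beyond the spread between libraries.

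Mavs (ENSMUSG00000037523; chromosome 2, 131075442 to 131096740, plus strand), the adaptor shared by MDA5 and RIG-I, did not follow the interferon-responsive genes. It was at 11.36, 16.57, 10.98, 14.24 and 15.42 FPKM in WT 1 to 5 and at 6.29, 9.29, 10.95, 8.27 and 10.93 in cKO 1 to 5. All libraries labelled cKO were below all WT libraries, with 10.98 and 10.95 FPKM as the closest values, and cKO 1, the highest for the helicases, was the lowest here. Between the groups the log2 fold change was -0.59 (95% interval -0.97 to -0.21, standard error 0.171, limma adjusted p = 0.0159), which passed the limit on p and not that on fold change, so Mavs was not called. The exact permutation test gave p = 0.00794, the smallest that 5 against 5 libraries allow. The groups overlapped under median-ratio scaling and under quantile normalization.

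Adarb1 (ENSMUSG00000020262; chromosome 10, 77126183 to 77254167, minus strand), which encodes the second editing enzyme ADAR2, known for recoding neuronal transcripts, fell. It was at 0.29, 0.56, 0.45, 0.46 and 0.48 FPKM in WT and at 0.16, 0.05, 0.14, 0.10 and 0.21 in cKO 1 to 5, about 11 to 116 fragments per library, and all libraries labelled cKO were below all WT libraries. The log2 fold change was -1.26 (95% interval -1.86 to -0.66, standard error 0.272, limma adjusted p = 0.00331), with an exact permutation p of 0.00794. Leaving out any 1 library kept the call, with values from -1.38 to -1.11. With a pseudocount of 1 the log2 fold change was -0.35, and under quantile normalization it was -0.79, both under the fold limit. Among the libraries with Xist at or below 1 FPKM, which leaves WT 1 and WT 2, it was -1.17 with a limma adjusted p of 0.0849. The editors thus differed in level and in behaviour: Adar was abundant and split the libraries labelled cKO, and Adarb1 was scarce and low in all of them.

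**Figure D3:**
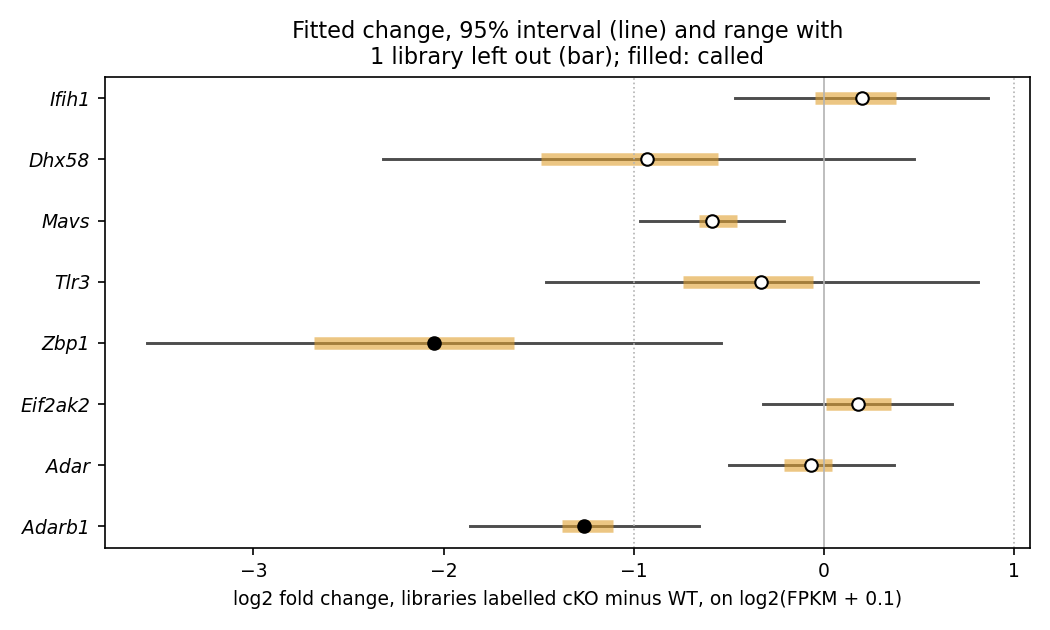
Fitted log2 fold change of each gene (horizontal axis, libraries labelled cKO minus WT on log2(FPKM + 0.1)), with its 95% interval as a line and the range over fits that leave out 1 library as a bar. Filled points are the called genes, Zbp1 at -2.05 and Adarb1 at -1.26, and the dotted lines mark the 2-fold limits.

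The partners of the sensors were counted in 5 lists drawn from general knowledge, with 62 of 65 genes tested. In all, 6 were called lower (9.68%) and 1 higher (1.61%), shares below the 16.8% and 4.6% of all genes tested, and their median log2 fold change was -0.08, beside -0.11 for all genes tested. Of 21 genes of RIG-I-like receptor signalling, 2 were called lower. Nlrx1, a mitochondrial protein that binds MAVS, fell from 4.68 ± 0.902 to 1.41 ± 0.472 FPKM (log2 fold change -1.69, limma adjusted p = 0.00025). Ikbke, which encodes the kinase IKKε that phosphorylates IRF3 and IRF7, fell from 4.28 ± 0.724 to 1.55 ± 0.593 FPKM (-1.46, limma adjusted p = 0.00052). Both had all libraries labelled cKO below all WT libraries. Its sister kinase Tbk1 was at 18.99 to 20.94 FPKM in WT and 15.83 to 21.34 in the libraries labelled cKO, and was not called.

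Of 7 partners of TLR3 and ZBP1, a short list, 3 were called lower (42.9%, beside 16.8% of all genes tested). Unc93b1, the chaperone that carries endosomal Toll-like receptors out of the endoplasmic reticulum, was at 60.96, 49.42, 38.63, 52.30 and 52.80 FPKM in WT and at 5.86, 1.77, 10.50, 1.06 and 14.69 in cKO 1 to 5 (log2 fold change -3.46, limma adjusted p = 0.00112). The order of the libraries labelled cKO was that of the monocyte and dendritic cell markers, highest in cKO 5 and cKO 3 and lowest in cKO 4. The part of those markers in this fall was not tested. Mlkl, the executor of necroptosis, fell from 21.1 ± 2.97 to 10.4 ± 2.12 FPKM (-1.03, limma adjusted p = 0.00023), only just past the fold limit. Casp8, the protease that restrains it, fell from 30.2 ± 1.6 to 12.9 ± 2.40 FPKM (-1.24, limma adjusted p = 5.99e-05). Ripk3, the kinase that ZBP1 recruits, was at 18.8 ± 0.567 and 17.9 ± 2.92 FPKM and was not called.

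Of 10 genes around PKR, 1 was called in each direction. Ppp1r15a, which encodes GADD34, the phosphatase subunit that reverses phosphorylation of eIF2α, rose from 9.70 ± 1.73 to 29.1 ± 6.62 FPKM (log2 fold change 1.56, limma adjusted p = 8.18e-05), and all libraries labelled cKO were above all WT libraries. Prkra, which encodes the PKR activator PACT, fell from 13.4 ± 1.37 to 4.35 ± 1.27 FPKM (-1.65, limma adjusted p = 0.000111). The OAS enzymes make 2′-5′ oligoadenylate on binding duplexes, and this messenger activates RNase L, which cuts RNA. Of the 10 genes of this list, which includes the RNase L inhibitor Abce1, limma called 0, with 1 at an unadjusted p under 0.05. That gene, Abce1, also passed the adjusted limit but not the fold limit (log2 fold change 0.52, limma adjusted p = 0.00474). The median log2 fold change of the list was 0.04, and its median SD on the log2 scale was 0.32 in WT and 1.36 in the libraries labelled cKO. Of 14 other editing and double-stranded RNA-binding genes tested, such as Dicer1, limma called 0, with 5 at an unadjusted p under 0.05. The same 5, of which 4 were higher and 1 lower, also had a limma adjusted p under 0.05 but missed the fold limit. The median SD of the 14 genes was 0.09 and 0.14, so this group was even across libraries.

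**Figure D4:**
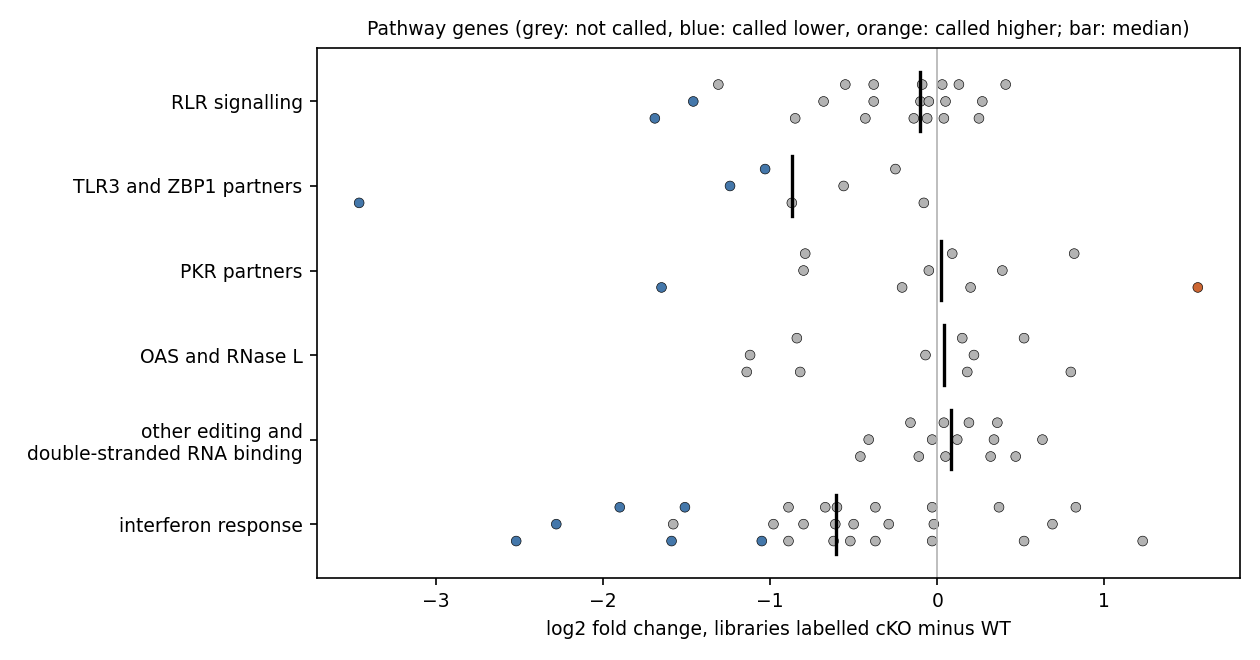
Log2 fold change of each gene of 6 lists (horizontal axis, libraries labelled cKO minus WT), with 1 point per gene and a bar at the median of each list. The interferon response list has the lowest called genes after Unc93b1, and the OAS and RNase L list and the other editing and double-stranded RNA-binding genes have no called gene.

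Among 28 interferon response genes limma called 6 lower and 0 higher, and the median of the list was -0.61 on the log2 scale. The 6 are 21.4% of the list, near the 16.8% of all genes tested that were called lower. At an unadjusted limma p under 0.05, 10 were lower and 2 higher. The guanylate-binding proteins Gbp3 and Gbp2 fell most, from 13.1 ± 1.45 to 2.79 ± 1.67 FPKM (-2.52, limma adjusted p = 0.00196) and from 5.72 ± 1.02 to 1.49 ± 1.41 FPKM (-2.28, limma adjusted p = 0.00364). Trim30a fell from 23.1 ± 2.25 to 7.62 ± 5.4 FPKM (-1.90, limma adjusted p = 0.00447), and Sp100, a nuclear body protein, from 17.9 ± 1.86 to 9.75 ± 5.87 FPKM (-1.05, limma adjusted p = 0.0201). The other 2, named here after their values were seen, were Ifi44 and Mx1. Mx1, the gene whose promoter drives Cre in these mice, was at 2.88 to 3.62 FPKM in WT and at 0.53, 0.85, 2.26, 0.74 and 1.94 in cKO 1 to 5 (-1.51, limma adjusted p = 0.00448). Mx1 was thus lowest in cKO 1, where Isg15 and Rsad2 were high. With the WT libraries that had Xist above 1 FPKM left out, so that WT 1 and WT 2 remained, limma called 0 of the 28 lower, with 4 lower at an unadjusted p under 0.05. Of all 18600 genes tested in that fit, 2262 were still called lower.

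**Figure D5:**
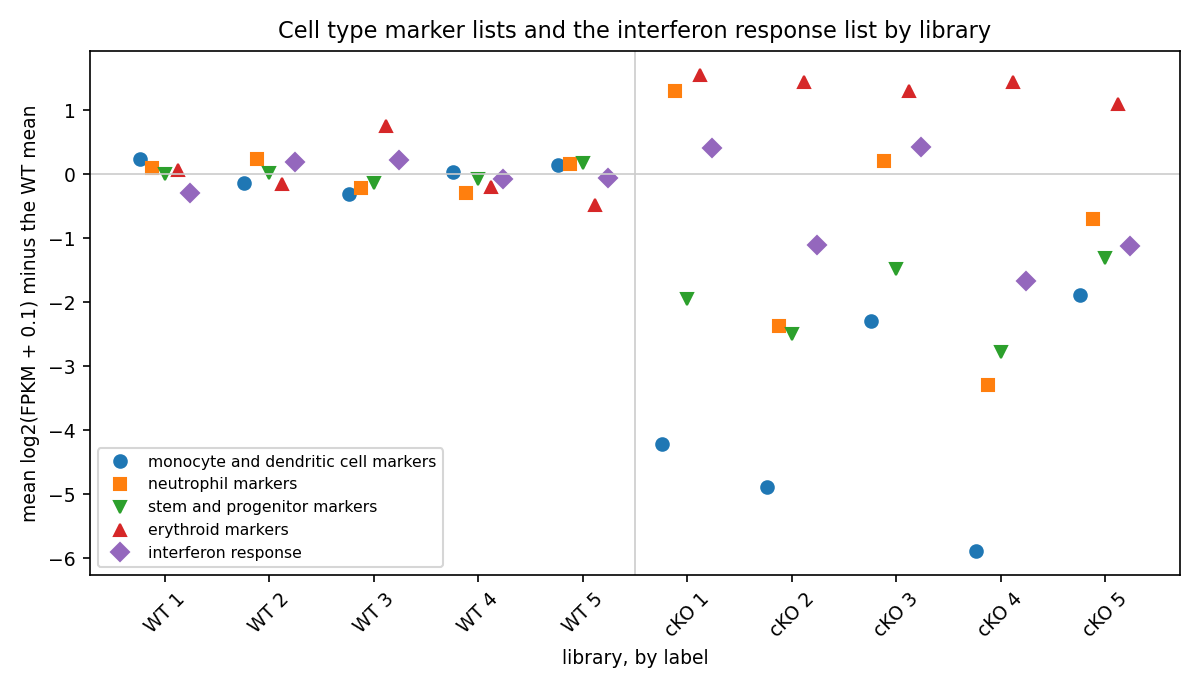
Mean of each marker list in each library as log2(FPKM + 0.1) minus the WT mean (vertical axis), beside the interferon response list. In cKO 1 and cKO 3 the neutrophil and interferon response means are the highest of the libraries labelled cKO, whereas the erythroid mean lies between 1.10 and 1.56 in all 5 and the monocyte and dendritic cell mean between -5.89 and -1.88.

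For the other marker lists, cKO 1 and cKO 3 were the 2 highest libraries of their label in 0 of 7 B-lymphoid, 3 of 10 T and NK, 0 of 8 megakaryocyte, 1 of 11 erythroid, 1 of 8 stem and progenitor and 1 of 7 stromal and endothelial markers. Called lower were 4 of 7 B-lymphoid, 5 of 10 T and NK, 8 of 8 megakaryocyte, 5 of 8 stem and progenitor and 6 of 7 stromal and endothelial markers tested. Summed levels in WT and in the libraries labelled cKO were 27.6 to 35.8 and 0.87 to 8.59 FPKM for B-lymphoid, 81.7 to 106 and 8.60 to 30.9 for T and NK, and 286 to 1310 and 86.8 to 190 for megakaryocyte markers. They were 149 to 202 and 69.3 to 139 FPKM for stem and progenitor, 22.2 to 30.8 and 1.75 to 6.89 for stromal and endothelial, and 639 to 1620 and 2100 to 3300 for erythroid markers. Kit, a receptor of early progenitors, was at 36.56 to 54.36 FPKM in WT and 18.73 to 31.11 in the libraries labelled cKO. It was thus present in every library but lower with the cKO label (log2 fold change -0.86, limma adjusted p = 0.0017), short of a call. Cd34 fell further, from 20.1 to 28.57 FPKM in WT to 1.05 to 6.78, whereas Cd48 changed little as a group (-0.04). Kit alone does not show which progenitors were present. Igll1, Dntt and Rag1 were at 0 in cKO 1, cKO 2 and cKO 4. The part of these markers in the falls of Zbp1, Adarb1 and Mavs was not tested.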

How the data were processed

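RNA from Lin- bone marrow cells, enriched with a lineage depletion kit, was sequenced by the authors as paired-end reads. They filtered the reads with cutadapt 1.9.1, aligned them to GRCm39 with HISAT2 2.0.1 and, per the labels' processing notes, used HTSeq 0.6.1. The authors deposited 1 FPKM value for each gene in each library, with 2 decimals. The annotation, gene lengths and strand setting are not given in the sources used here, so reads of overlapping genes may not be told apart.

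Because FPKM are not counts, the authors' DESeq2 test was not run. The fit was limma 3.58.1 (lmFit, eBayes with a trend) in R 4.3.3, two-sided, on log2(FPKM + 0.1) for genes that averaged 0.1 FPKM or more. Exact permutation tests enumerated 252 groupings in Python 3.11.15. Depth came from genes with a single GENCODE M39 transcript, where 96.0% to 96.4% of low values were whole fragments within 0.2, and fragments of named genes are approximate. Identifiers were paired with symbols through that annotation (54749 of 55359 matched). RefSeq windows, listed on another build, were placed on GRCm39 where their sequence matched exactly at 1 site. On simulated data the fit recovered 178 of 200 genes given a log2 change of 2, 0 with the wrong sign. It made 8 false calls over 18142 genes. These counts pool all genes. Performance for low genes such as Adarb1, and for genes of unequal spread such as Adar and Dhx58, was not tested separately. No 2 libraries of a group agreed within sampling noise (the lowest chi-square per degree of freedom was 4.07).

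The genes, lists and tests were chosen with earlier results of these data known. Named genes were Dhx9, the 8 members, Rigi, up to 4 called genes per pathway list by level and change, defining markers and the 3 nearest genes in pattern. Genes named outside this rule were chosen after their values were seen. Alternatives were other pseudocounts, filters, scalings, no trend, a replicate block, Xist, leaving out each library, adjusted p alone and a shorter motif. Vpreb1 had no match.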

Additional observations from a re-analysis of the deposited data

Results flagged for a closer look

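Of 42 groups of 5 libraries examined for the 8 genes and the named genes around them, 4 had 1 library far from the rest by Dixon's test at 95%, where chance flags about 1 in 20 groups (2.1 of 42). Zbp1 in cKO 3 was at 2.47 FPKM, beside 0.04 to 0.59 FPKM in the other libraries labelled cKO. Mlkl in the same library was at 14.07 FPKM, beside 9.09 to 10.12. Tlr3 in WT 2 was at 0.24 FPKM, beside 0.17 to 0.18 in the other WT libraries, a gap of few fragments. Rigi in WT 5 was at 3.80 FPKM, beside 3.19 to 3.28.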

How the results depend on the processing

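With adjusted p alone, limma placed 3137 genes higher and 5298 lower, 9 and 16 of the double-stranded RNA lists, and 1 interferon response gene higher. Counts of all genes higher and lower were 356 and 1486 with a pseudocount of 1 and 462 and 1827 with a mean of at least 1 FPKM. Quantile normalization placed 1583 higher (41.4% of calls, beside 21.5%) and 2244 lower, and shifted the median over all genes from -0.11 to 0.10 (log2). It left 0 of the 8 members called by limma (3 lower at an unadjusted p under 0.05) and 0 without overlap. Without libraries that had Xist above 1 FPKM, 536 genes were higher and 2262 lower of 18600 tested. In that fit limma called 0 of the 8 members and 0 of the 28 interferon response genes lower (2 and 4 at an unadjusted p under 0.05). Members called lower by limma were 0 with a pseudocount of 1 (3 at an unadjusted p under 0.05), 1 with the stricter filter and 1 with the Xist covariate, and 3 interferon response genes were called lower with a pseudocount of 1. Median-ratio scaling left 1 member without overlap. With 1 library left out, 763 to 949 genes were higher and 2892 to 3268 lower, and 1 to 3 members were called lower (3 without cKO 1). Signs changed for Ifih1 (-0.05 without cKO 1, and -0.05 to 0.38 over libraries left out), Tlr3 (0.25, quantile) and Adar (0.04 with median-ratio scaling, 0.03 with quantile normalization, and -0.21 to 0.04 over libraries left out, above 0 without cKO 2, cKO 4 or cKO 5), none of them called. The cause was not tested.

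Same-numbered libraries deviated together little or not at all (correlations -0.0103 to 0.117), although for WT 1, WT 2 and WT 5 the closest cKO library had the same number. Low correlations cannot exclude a pairing, and the main fit treated the libraries as unpaired. With a replicate block 857 genes were higher and 3107 lower, and Zbp1 and Adarb1 were called (limma adjusted p of 0.0348 and 0.0178). Depth limits Tlr3, Zbp1 and Adarb1, of which some libraries held few fragments.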
